A study of Mus musculus with 6 samples.

Results

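The circadian clock genes of the liver were followed on bead arrays, through all 19 probes, of 45281 in the table, whose platform symbol was Per1, Per2, Per3, Cry1, Cry2, Arntl, Clock, Nr1d1, Nr1d2 or Dbp. These are 10 genes of 19057 named by a probe. Mice of the strain C57Bl/6N, 8 weeks old, had been given tunicamycin or vehicle by intraperitoneal injection, and liver RNA was taken 12 hours later. The tunicamycin group received 2.5 mg/kg, and the control group received vehicle in an equal volume. The drug was dissolved in dimethyl sulphoxide and diluted in glucose-containing phosphate-buffered saline, and the labels do not spell out what the vehicle held. Each group had 3 arrays, and the labels do not say whether an array held 1 animal or a pool. The hour of injection, the light schedule and food intake are not stated by the labels, so each value is a level at a single unknown time of day, and a change of level and a shift of phase cannot be told apart.

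Tunicamycin stops cells from attaching N-linked sugars to new proteins, and unfolded proteins then build up in the endoplasmic reticulum. The circadian clock is a transcriptional feedback loop with a period of about a day. CLOCK and BMAL1, the product of Arntl, bind DNA as a pair and switch on the Per and Cry genes, whose proteins then inhibit that pair. In a linked loop the same pair switches on Nr1d1 and Nr1d2, which encode the REV-ERB repressors, and these repress Arntl while the ROR factors activate it. Dbp is a direct target of CLOCK and BMAL1, and DBP carries the rhythm on to genes of liver metabolism. In normal liver the transcripts of Arntl and those of Nr1d1, Dbp and the Per genes peak at roughly opposite times of day.

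The bead signal is a fluorescence brightness, given below as a normalized log2 intensity, on which the least bright probes lay slightly above 4. On an array, 15503 to 16603 probes had a detection p under 0.05, and the 16559 probes with such a value on at least 3 of 6 arrays were kept and tested. Over the kept probes, arrays of 1 group correlated at 0.989 to 0.994 and arrays of different groups at 0.887 to 0.901 (Pearson, taken over probes, which are not replicates). The treatment was visible in Ddit3, which encodes the stress factor CHOP and rose by 8.11 ± 0.11 on the log2 scale (SE), or by 6.83 without background correction, and in Hspa5, the chaperone BiP, which rose by 2.25 ± 0.15 by a probe detected on 1 of 3 vehicle arrays, or by 0.92 without background correction. Of all named genes, by their brightest probe, 31.2% rose and 33.1% fell. Of 10 hepatocyte markers 9 were measured, and of these 5 fell and 0 rose, with a median log2 fold change of -0.31, while the Alb probe failed the detection filter. Markers of Kupffer cells and macrophages fell in 9 of 10 measured genes, and their mean relative to vehicle was -1.81, -1.52 and -0.62 on tunicamycin replicates 1, 2 and 3. Endothelial markers fell in 5 of 9, stellate cell markers in 3 of 6 and erythroid markers in 2 of 3, with 0 rising in each list. Slc4a1, among the erythroid markers that fell, passed the filter through the vehicle group alone and could be called only as a fall. Of the neutrophil markers 1 of 3 rose, and neither of the 2 measured cholangiocyte markers passed the test. Of 9 T, NK and B cell markers 7 had a probe, and 0 passed the filter. In whole liver, fewer cells of a type and less RNA per cell cannot be told apart, and the part of cell makeup in the values below was not tested.

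Arntl, Clock and Per1 were higher after tunicamycin, Nr1d1, Nr1d2 and Dbp were lower, and Per2 and Cry2 did not pass the test in either direction. Of the 19 probes, 11 passed the detection filter, and these came from 8 of the 10 genes. Among the 11, 4 rose and 3 fell, whereas of all kept probes 31.8% rose and 29.8% fell. A call in either direction was made for 61.5% of all kept probes. The share of clock probes with a call was thus near that of the whole array, and the results concern which genes moved and which way. The Nr1d1 probe passed the filter through the vehicle group alone, so these counts do not describe all members. Of the 11 probes, 7 had groups that did not overlap, against 65.7% of all kept probes. The median log2 fold change of the 11 was 0.20, and that of all kept probes was 0.01.

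**Figure D1:**
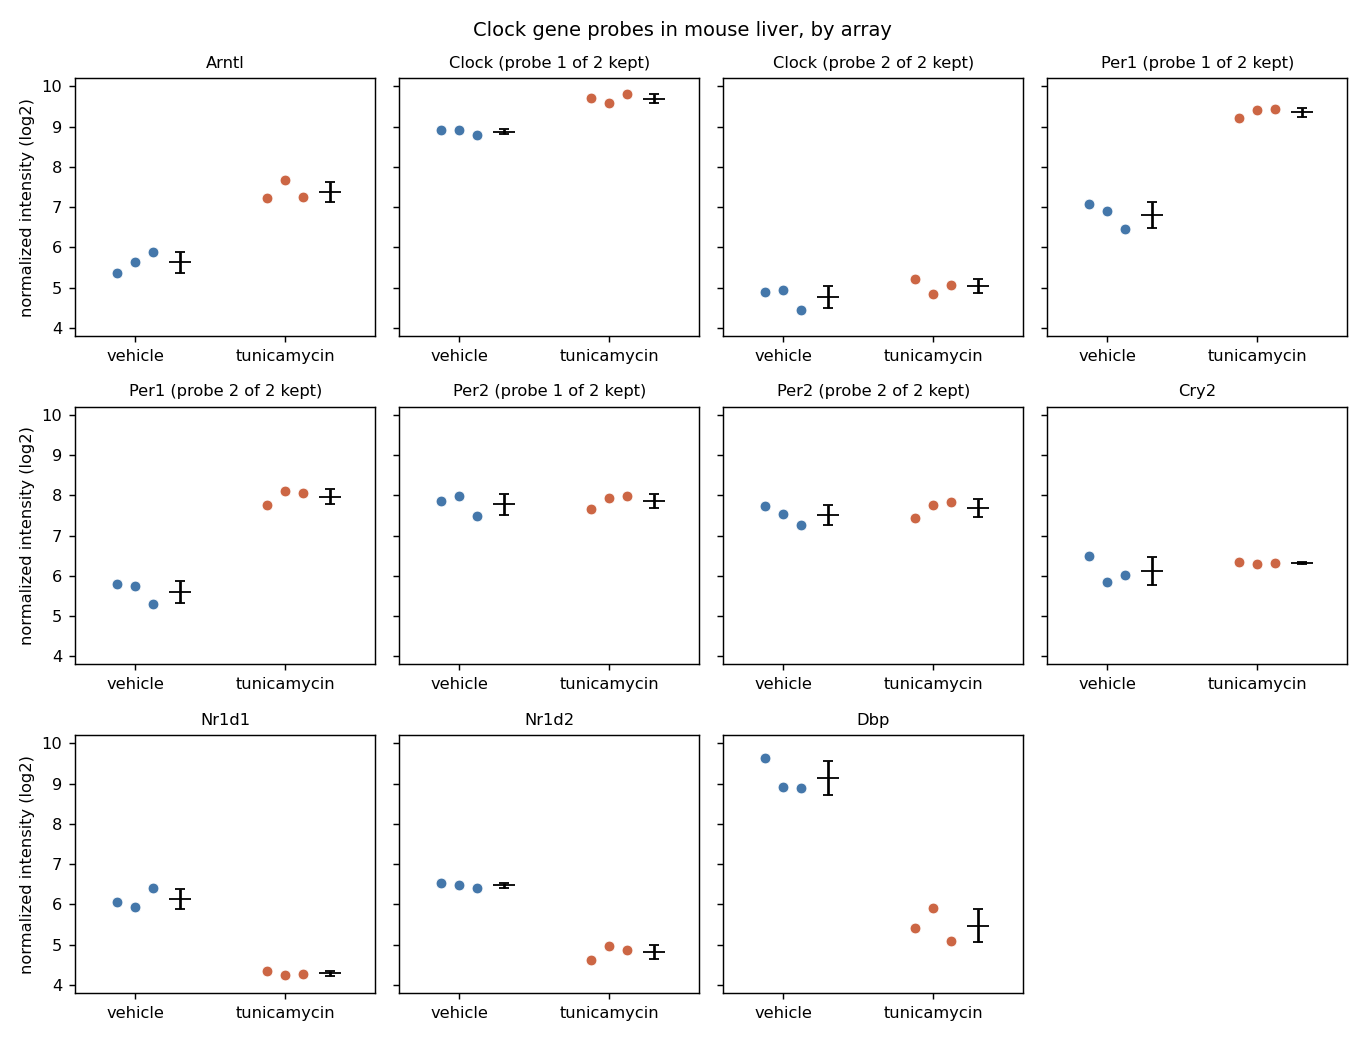
Normalized log2 intensity of the 11 tested clock gene probes, 1 panel per probe, with a point for each of 3 vehicle arrays (blue) and 3 tunicamycin arrays (orange) and the mean ± SD of each group in black. The groups are apart for Arntl, Per1, Nr1d1, Nr1d2, Dbp and the brighter Clock probe, and overlap for Per2, Cry2 and the dimmer Clock probe.

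In the activating limb, the transcript of Arntl was 3.37-fold higher. Its probe read 5.37, 5.65 and 5.89 on the vehicle arrays and 7.23, 7.67 and 7.26 on the tunicamycin arrays. All 3 tunicamycin arrays lay above all 3 vehicle arrays, by a gap of 1.34. The log2 fold change was 1.75 ± 0.16 (SE), with an adjusted p of 4.56e-06 by limma's moderated test, the test behind every adjusted p for a gene here. Without background correction the log2 fold change was 0.96.

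The promoter of Arntl is shown because it holds sites of the kind that REV-ERB and ROR proteins bind, and the genes of both kinds of protein moved in these livers. The window, from RefSeq on GRCm38.p6, is chr7:113207261-113207560 on the plus strand, and runs from 250 bases before to 50 bases after an annotated start site. Capitals mark matches to the ROR element, written here as AA, any base and then TAGGTNA, searched on both strands.
Arntl: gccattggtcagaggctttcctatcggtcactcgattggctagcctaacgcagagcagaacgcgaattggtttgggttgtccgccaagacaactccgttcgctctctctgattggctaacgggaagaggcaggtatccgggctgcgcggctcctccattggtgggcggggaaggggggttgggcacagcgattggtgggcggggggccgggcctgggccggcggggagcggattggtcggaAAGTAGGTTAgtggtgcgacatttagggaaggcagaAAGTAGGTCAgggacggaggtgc
The 2 matches began at -9 and 27, counted from 0 at the start site. The table has 2 Arntl windows, and the other one overlaps this one and holds 1 of the same matches. Of all 32851 promoter windows in the table, 0.682% held this element, and among the clock gene windows only those of Arntl did. A match in letters does not show that a protein is bound there.

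Clock, which encodes the partner of BMAL1, rose 1.77-fold by its brightest probe. That probe read 8.91, 8.91 and 8.80 on the vehicle arrays and 9.71, 9.59 and 9.80 on the tunicamycin arrays. The groups did not overlap, and the log2 fold change was 0.83 ± 0.11 (adjusted p = 6.56e-05). A dimmer Clock probe read 4.90, 4.94 and 4.45 against 5.21, 4.84 and 5.08, with overlapping groups. Its log2 fold change was 0.28 ± 0.15 (adjusted p = 0.140), so the rise rests on the bright probe, and the third Clock probe was not detected on any array. With the mean of both kept probes, the gene's log2 fold change was 0.55 (adjusted p = 0.00274).

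Npas2, which can replace CLOCK as the partner of BMAL1, read 4.30, 4.25 and 4.66 on the vehicle arrays and 4.85, 5.004 and 4.97 on the tunicamycin arrays. It was detected on 1 of 3 vehicle arrays and on all 3 tunicamycin arrays. The rise was small on this scale, with a log2 fold change of 0.54 ± 0.13 (adjusted p = 0.00418). Arntl2, a paralog of Arntl, had no probe that passed the filter.

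Among the repressors of that pair, Per1 had the largest rise of any clock member, and Per2 did not pass the test. The brighter Per1 probe read 7.07, 6.90 and 6.45 on the vehicle arrays and 9.22, 9.41 and 9.43 on the tunicamycin arrays. Each tunicamycin array lay at least 2.15 above each vehicle array. The rise was 5.84-fold, with a log2 fold change of 2.55 ± 0.16 (adjusted p = 2.27e-07). A second Per1 probe read 5.79, 5.75 and 5.30 against 7.76, 8.10 and 8.05, with a log2 fold change of 2.36 ± 0.15 (adjusted p = 3.50e-07). Without background correction the log2 fold changes were 1.96 and 1.40, and with an offset of 50 they were 2.23 and 1.78. The third Per1 probe was detected on 0 of 6 arrays.

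Per2 read 7.87, 7.98 and 7.48 on the vehicle arrays and 7.66, 7.93 and 7.98 on the tunicamycin arrays by its brighter probe. The groups overlapped. The log2 fold change was 0.08 ± 0.15 (adjusted p = 0.661), with a 95% interval of -0.25 to 0.41. A second Per2 probe gave 0.17 ± 0.15, with an interval of -0.17 to 0.51 and an adjusted p of 0.370. The log2 fold changes of both Per1 probes lay above both intervals.

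The difference between the 2 paralogs was taken within each array, as Per1 minus Per2 by their brighter probes and relative to the vehicle mean. It was 0.17, -0.11 and -0.06 on the vehicle arrays and 2.53, 2.45 and 2.41 on the tunicamycin arrays. The mean difference of 2.46 had an exact two-sided permutation p of 0.1, the smallest that 3 against 3 arrays allow. In all 4 pairs of genes were compared in this way, and after Benjamini-Hochberg adjustment over them the exact permutation p was 0.133. The pairs with Nr1d1 are not given, since its probe was below detection after tunicamycin.

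Per3 was near background. Its 2 probes were each detected on 1 of 3 vehicle arrays and on no tunicamycin array, so neither passed the filter. They read 4.68, 4.44 and 4.38 and 4.57, 4.47 and 4.42 on the vehicle arrays. On the tunicamycin arrays they read 4.15, 4.30 and 4.35 and 4.22, 4.27 and 4.30. For both probes all tunicamycin values lay below all vehicle values, though by only 0.03 and 0.12. When every probe on the array was tested without a filter, the log2 difference of -0.22 for the second of these passed (adjusted p = 0.0271) and that of -0.23 for the other did not (adjusted p = 0.171).

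A pair of Per gene promoters is shown for the clock sites they hold: an E-box, CACGTG, which CLOCK and BMAL1 bind, in Per1, and a pair of D-boxes, TTATGTAA, which DBP and its relatives bind, in Per3. The windows are from RefSeq on GRCm38.p6, at chr11:69098699-69098998 on the plus strand for Per1 and chr4:151044616-151044915 on the minus strand for Per3. Capitals mark the matches, searched on both strands.
Per1: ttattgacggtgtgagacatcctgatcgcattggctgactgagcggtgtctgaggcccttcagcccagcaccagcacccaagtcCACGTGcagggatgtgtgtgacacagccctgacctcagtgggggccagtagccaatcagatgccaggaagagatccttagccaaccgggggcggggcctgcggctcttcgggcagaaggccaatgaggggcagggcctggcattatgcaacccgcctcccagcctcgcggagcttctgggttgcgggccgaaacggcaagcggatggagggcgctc
Per3: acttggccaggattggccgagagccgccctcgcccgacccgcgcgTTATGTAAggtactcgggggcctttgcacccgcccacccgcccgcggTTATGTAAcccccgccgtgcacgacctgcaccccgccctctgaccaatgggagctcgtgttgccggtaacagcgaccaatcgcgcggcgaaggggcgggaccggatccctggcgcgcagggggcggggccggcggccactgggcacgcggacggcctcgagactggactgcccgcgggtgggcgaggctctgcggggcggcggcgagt
The E-box of Per1 began at -166, and the D-boxes of Per3 at -205 and -158. E-boxes stood in 7.15% of all promoter windows and D-boxes in 0.938%. Of the 13 windows of 9 clock genes in the table, 2 held an E-box, 1 of the 2 Per1 windows and that of Cry1, and 1 held a D-box. The cAMP response element TGACGTCA and the composite element of ATF4 and CHOP, TGATGNAAN, were found in 0 of the 13, against 1.79% and 3.95% of all windows. Per2 had no window, so its promoter was not searched. These windows are short, and a site outside them was not searched for.

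The Cry genes encode the other partners in the repressor complex. Cry2 read 6.50, 5.84 and 6.02 on the vehicle arrays and 6.34, 6.30 and 6.32 on the tunicamycin arrays. The tunicamycin values fell within the spread of the vehicle values. The log2 fold change was 0.20 ± 0.16 (adjusted p = 0.292), with a 95% interval of -0.15 to 0.55. Without vehicle replicate 1, the highest of the vehicle values, it was 0.39 and passed the test (adjusted p = 0.0121). A second Cry2 probe and the only Cry1 probe were detected on 0 of 6 arrays, and Cry1 could not be assessed.

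The REV-ERB genes, which link the activating limb to the rest of the loop, both fell. Nr1d1 read 6.05, 5.93 and 6.41 on the vehicle arrays and 4.34, 4.24 and 4.27 on the tunicamycin arrays. It was detected on all 3 vehicle arrays and was not well above background on any tunicamycin array, so its level there has only an upper bound. Nr1d1 was at least 2.99-fold lower, with the tunicamycin arrays set to the lowest values of detected probes or to the probe's own value if higher. The probe passed the filter only through the vehicle group, where it was high, so it had to differ, and its adjusted p of 7.87e-07 adds nothing to the detection calls. The bound and the fitted log2 fold change of -1.85 ± 0.13 hold for the background correction used here, and the fitted value was -0.67 without background correction and -0.96 with an offset of 50 in place of 16.

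Nr1d2 was still detected after tunicamycin, at 4.62, 4.96 and 4.86 against 6.53, 6.49 and 6.40 on the vehicle arrays. The 3 tunicamycin arrays all lay below the vehicle arrays, which were close together (SD 0.07, n = 3). The fall was 3.16-fold, with a log2 fold change of -1.66 ± 0.12 (adjusted p = 7.09e-07), or -0.67 without background correction and -0.98 with the larger offset. A second Nr1d2 probe was detected on 0 of 6 arrays. Since the fall of Nr1d1 has only a lower bound, the falls of the REV-ERB genes cannot be ranked.

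Within the activating limb, the value of Arntl minus Clock on each array, relative to the vehicle mean, was -0.30, -0.02 and 0.33 on the vehicle arrays and 0.75, 1.32 and 0.70 on the tunicamycin arrays. The groups did not overlap, and the mean difference was 0.92 (exact two-sided permutation p = 0.1, n = 3 per group). Its size depended on the processing: the log2 fold changes of Arntl and Clock were 1.26 and 0.78 with an offset of 50, and 0.96 and 0.74 without background correction.

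Dbp, the output factor, had the largest fitted change of the tested clock members. It read 9.64, 8.91 and 8.89 on the vehicle arrays and 5.41, 5.92 and 5.10 on the tunicamycin arrays. A gap of 2.97 separated the lowest vehicle array from the highest tunicamycin array. The probe remained detected on all 6 arrays. The fall was 12.8-fold, with a log2 fold change of -3.67 ± 0.23 (adjusted p = 2.96e-07), and its size was -2.43 without background correction and -2.93 with the larger offset. Dbp also had the widest spread of the called members within groups, 0.43 among vehicle and 0.41 among tunicamycin arrays (SD, n = 3).

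**Figure D2:**
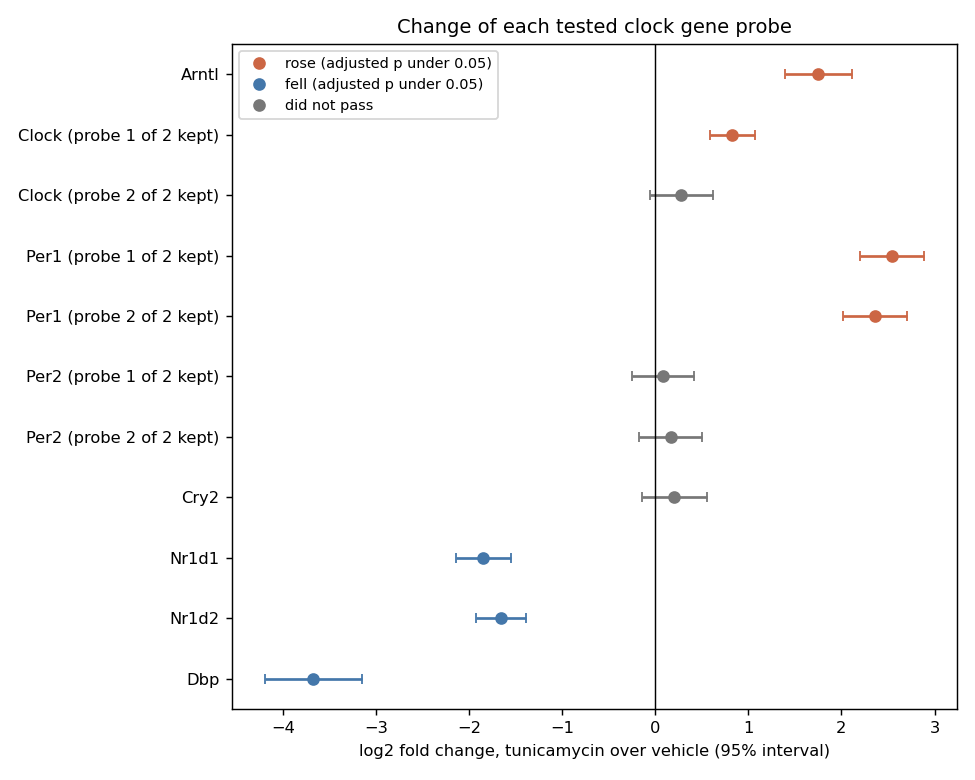
Log2 fold change of tunicamycin over vehicle for each of the 11 tested clock gene probes, with its 95% interval from limma (3 arrays per group), coloured by whether it passed the test. Per1, at 2.55, and Dbp, at -3.67, lie at the ends, and the intervals of Per2, Cry2 and the dimmer Clock probe include 0.

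Other transcription factors of the clock went both ways. Of 11 listed, 5 were measured, and 2 rose, 2 fell and 1 did not pass, while of all named genes, by their brightest probe, 31.2% rose, 33.1% fell and 64.3% had a call. Rora, which activates Arntl at ROR elements, read 8.23, 8.01 and 8.27 on the vehicle arrays and 9.44, 9.74 and 9.66 on the tunicamycin arrays. Its level was 2.72-fold higher, a log2 change of 1.44 ± 0.12 (adjusted p = 2.62e-06). Npas2 was the other that rose.

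Tef, a relative of Dbp that binds the same D-box, fell 2.33-fold. Its values were 7.80, 7.43 and 7.80 on the vehicle arrays and 6.54, 6.53 and 6.31 on the tunicamycin arrays (adjusted p = 1.62e-05). Bhlhe40, which encodes the repressor DEC1 that acts on E-boxes, fell 1.93-fold, from between 9.31 and 9.47 to between 8.45 and 8.48 (adjusted p = 1.68e-05). Ciart, a repressor of CLOCK and BMAL1 that is itself clock-driven, gave 0.60 ± 0.25 on the log2 scale by its brightest probe (adjusted p = 0.0598), and 1 of its 3 kept probes rose. Nfil3, Hlf and Bhlhe41 were among the listed factors with no probe that passed the filter. Of these factors, Tef, Bhlhe41 and Ciart held an E-box in a promoter window and none of the 9 with a window held a ROR element.

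Of 11 measured kinases, ubiquitin ligases and deubiquitinases, 5 rose, 2 fell and 4 did not pass, beside 64.3% of all named genes with a call, with a median log2 fold change of 0.27 against -0.02 for all named genes. Siah2, a ubiquitin ligase that acts on the REV-ERB proteins, had the largest rise, at 2.74-fold (log2 fold change 1.45 ± 0.17, adjusted p = 3.24e-05). Usp2, a deubiquitinase whose transcript is itself under clock control in liver, fell 2.21-fold, from 6.38, 6.38 and 6.07 to 4.99, 5.50 and 4.91 (adjusted p = 1.29e-04). Without background correction the log2 fold changes of Siah2 and Usp2 were 0.64 and -0.47. Gsk3b, a kinase that phosphorylates several clock proteins, rose 2.04-fold by its brightest probe (adjusted p = 5.83e-04) and by 0.58 on the log2 scale by its other probe. Csnk1d, the casein kinase that marks PER proteins for degradation, rose 1.69-fold by its brightest probe (adjusted p = 9.01e-05), and 3 of its 5 kept probes rose. Its relative Csnk1e differed by 0.13 ± 0.15 on the log2 scale (adjusted p = 0.475), and 1 of 2 probes rose.

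Among co-regulators of the clock, 7 of 16 rose, 5 fell and 4 did not pass, beside 64.3% of all named genes with a call, with a median log2 fold change of -0.03. Ppargc1a, a coactivator of the ROR factors on Arntl, was at least 2.50-fold lower and was not well above background on any tunicamycin array. Its probe passed the filter through the vehicle group alone and could be called only as a fall. The bound holds for the correction used here, since the fitted log2 fold change was -0.50 without it. Prmt5, an arginine methyltransferase, rose 2.43-fold (adjusted p = 2.50e-06), and Tipin, the partner of Timeless, rose 1.78-fold by 1 of its 2 kept probes. Hdac3, the deacetylase that REV-ERB proteins recruit, had a small fall of 0.39 ± 0.13 on the log2 scale (adjusted p = 0.0199).

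Among genes known to be rhythmic in liver, 29 were measured. Of these, 17 fell, 6 rose and 6 did not pass, beside 33.1% and 31.2% of all named genes that fell and rose, with a median log2 fold change of -0.53. Pnpla3 and Pck1, among those that fell, passed the filter through the vehicle group alone and could be called only as falls. The list was written from general knowledge with earlier results of these arrays known, and several of its genes also respond to feeding or stress, so it is not independent evidence. Cdkn1a, the cell cycle inhibitor p21, rose by 5.50 ± 0.16 on the log2 scale, the largest change in the list by the brightest probe. Rgs16, a regulator of G protein signalling, read 10.41, 9.28 and 9.11 on the vehicle arrays and 4.60, 4.23 and 4.59 on the tunicamycin arrays. The fitted fall was 34.9-fold, with detection on 2 of 3 tunicamycin arrays. Those values lay near or below the lowest values of detected probes, 4.51 to 4.59 by array, so the size of this fall depends on the background correction. Cyp2b10, a drug-metabolising enzyme controlled partly by DBP, TEF and HLF through another receptor, rose by 4.93 ± 0.24 by its brightest probe and by 0.95 by the other. Without background correction the log2 fold changes of Cdkn1a, Cyp2b10 and Rgs16 were 4.21, 3.99 and -3.17.

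Upp2, a uridine phosphorylase, fell 24.5-fold by its brightest probe (log2 fold change -4.61 ± 0.19), and all 4 of its probes fell. Elovl3, an enzyme of fatty acid elongation, fell 7.16-fold, and Gys2, the liver glycogen synthase, fell 5.56-fold. Noct, a rhythmic enzyme also called Nocturnin, fell 1.99-fold by its brightest probe (adjusted p = 0.00951), with groups apart by only 0.003. Its other probe did not pass, at -0.16. Alas1, the first enzyme of haem synthesis, rose 1.61-fold (adjusted p = 0.00929), with groups apart by 0.08. Cyp7a1, which starts the conversion of cholesterol to bile acids and is a target of DBP, read 11.85, 11.28 and 10.51 against 6.73, 8.38 and 4.83, so the tunicamycin arrays differed widely among themselves.

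**Figure D3:**
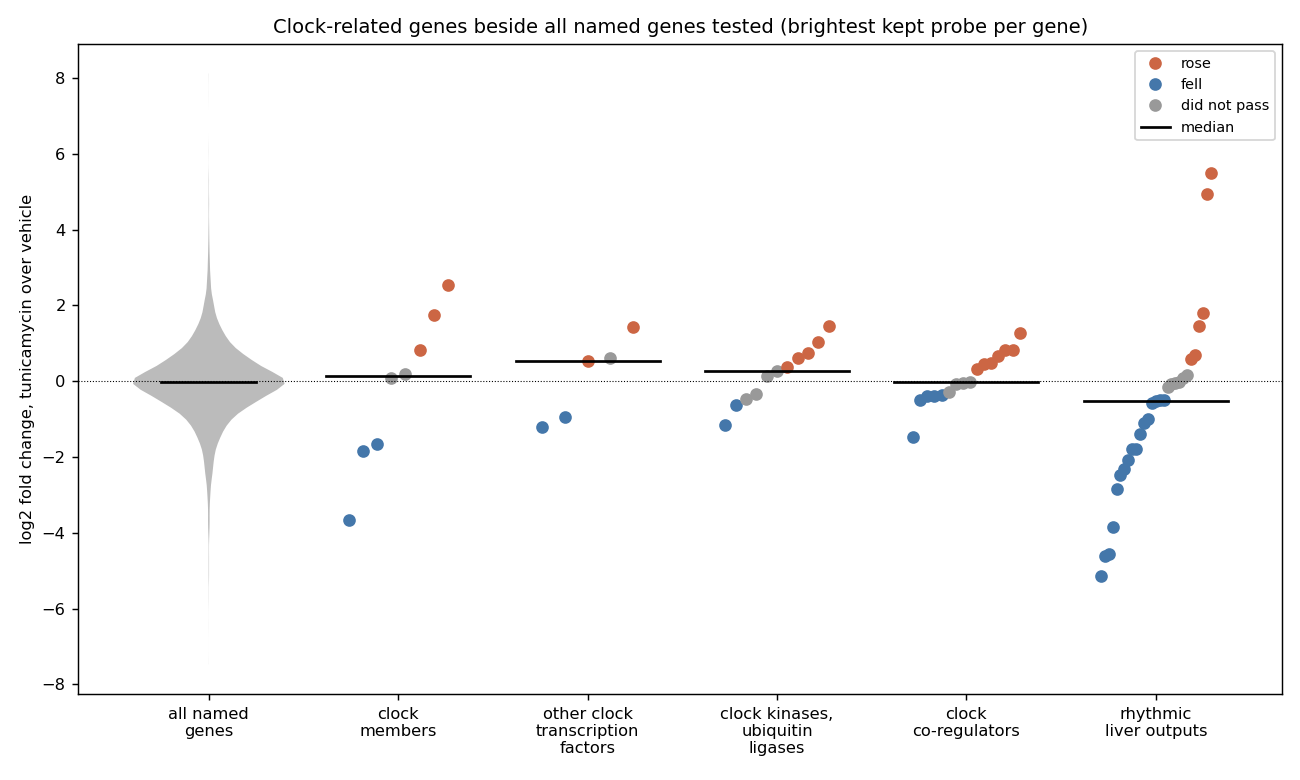
Log2 fold change of tunicamycin over vehicle by the brightest kept probe per gene, for all named genes (grey shape) and for each measured gene of 5 clock-related lists (points, coloured by call), with black lines at the medians. The clock members split into genes above and below 0, and the rhythmic liver outputs have a median of -0.53 against -0.02 for all named genes.

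Signals that are known to set the Per1 gene in liver include glucocorticoids, so 10 measured genes that respond to these hormones were set beside it. Of these, 3 rose, 2 fell and 5 did not pass, beside 64.3% of all named genes with a call, with a median log2 fold change of 0.07. Mt2, a metallothionein, rose 10.1-fold, though only 1 of 3 vehicle arrays detected it, and Lcn2, an acute phase protein, rose 7.06-fold. Without background correction the log2 fold change of Mt2 was 1.69. Dusp1, a phosphatase that acts on MAP kinases, fell 6.04-fold, and Tsc22d3, the leucine zipper protein GILZ, fell 4.92-fold by its brightest probe. All 3 Tsc22d3 probes fell, with log2 fold changes from -2.30 to -0.58. Fkbp5 rose by 0.62 ± 0.18 on the log2 scale (limma adjusted p = 0.0129), with groups apart by only 0.02. Sgk1, Klf9, Zbtb16, Errfi1 and Cebpd did not pass. Whether glucocorticoids had a part in the rise of Per1 was not tested.

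Feeding also sets the liver clock, and 8 genes that respond to feeding or fasting were measured. Of these, 6 fell and 2 rose, beside 33.1% and 31.2% of all named genes. Pnpla3, Ppargc1a and Pck1 passed the filter through the vehicle group alone and could be called only as falls, so these counts do not describe the list. The fed-state genes Srebf1, Fasn and Pnpla3 fell. Of the fasting genes, Pck1, Ppargc1a and Angptl4 fell, the last with overlapping groups, and Fgf21 and Pdk4 rose. Whether food intake had a part in these changes was not tested. Srebf1, an activator of lipid synthesis in the fed state, fell 8.80-fold. Pck1, a gluconeogenic enzyme of the fasted state, was at least 2.76-fold lower by its brightest probe, which was not well above background on any tunicamycin array. Its other kept probe fell by less, with a log2 fold change of -0.62. Fgf21, a hormone of fasting and stress, rose 37.9-fold, with detection on 2 of 3 vehicle arrays. Without background correction the fitted log2 fold changes of Fgf21, Srebf1 and Pck1 were 3.34, -1.71 and -0.66, so the bound for Pck1 holds only for the correction used here.

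The genes whose 6 values lay nearest to those of Per1, relative to the vehicle mean, were D16Ertd472e, Srp54a and Wdr43, at root mean square distances of 0.107, 0.151 and 0.153 on the log2 scale over the 6 arrays. Nearest to Dbp were Klkb1, Cldn1 and Aox3, at 0.243, 0.267 and 0.268. The distance takes in the difference between the groups, and D16Ertd472e rose 6.09-fold and Klkb1, which encodes plasma prekallikrein, fell 13.1-fold (log2 fold change -3.04 without background correction). No clock gene was among the 6.

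**Figure D4:**
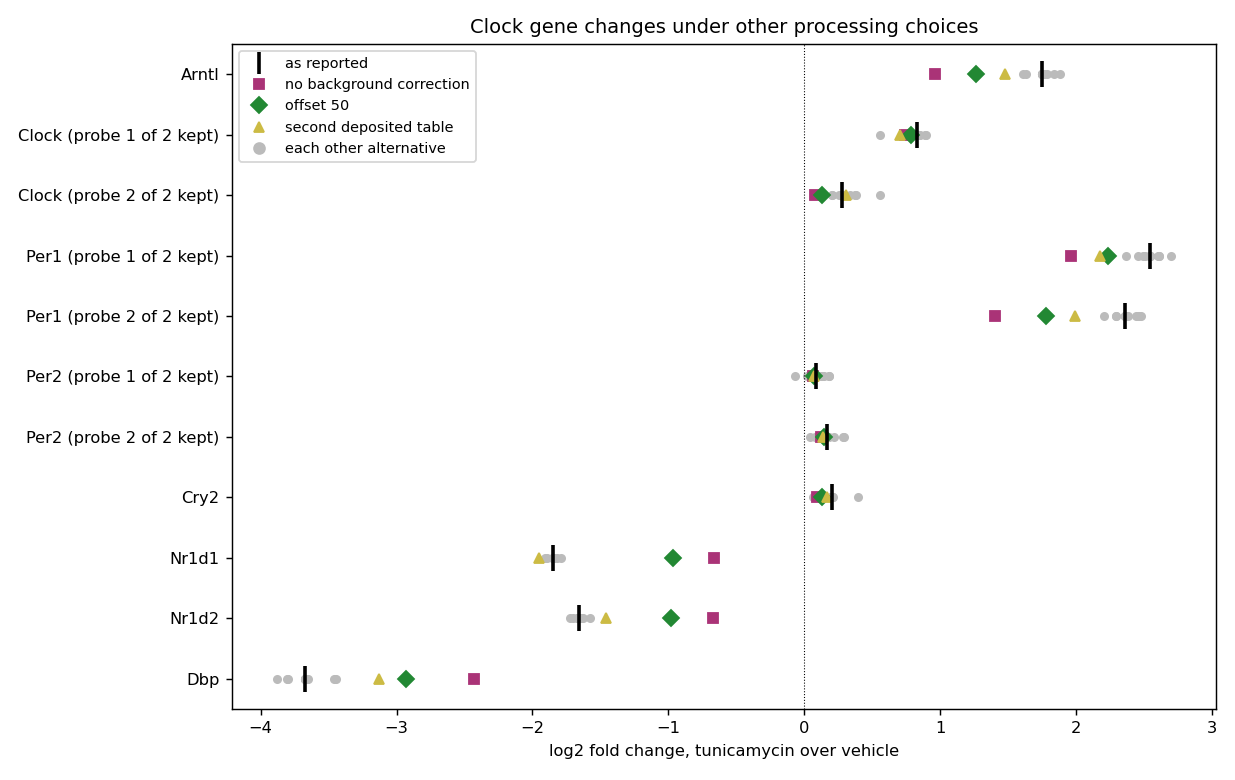
Log2 fold change of each tested clock gene probe as reported (black bar) and under the processing alternatives, with no background correction (squares), an offset of 50 (diamonds) and the second deposited table (triangles) marked, and each other alternative in grey. The direction of Arntl, Per1, Nr1d1, Nr1d2, Dbp and both Clock probes is the same in every alternative that gave a value, and without background correction Nr1d1 and Nr1d2 move to -0.67 each.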

How the data were processed

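Biotin-labelled cRNA of 6 liver samples was read on Illumina bead arrays. One deposited table gives intensity, an AVG_Signal per probe in the file headers, and its values had been neither background-subtracted nor scaled between arrays. A deposited detection p-value, per the file headers, stands to the right of each signal. The second deposited table holds intensity that was, from its values, background-subtracted and quantile-normalized, and it served as an alternative. The scanner and software are not stated by the labels or headers.

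The nec function of limma 3.58.1 (R 4.3.3) applied normexp, inferring each background from the detection p-values, with an offset of 16. Quantile normalization and log2 followed. The offset makes fold changes of dim probes too small. A probe was kept if 3 or more of the 6 arrays had its detection p under 0.05. Groups were compared by lmFit and eBayes over all 16559 kept probes, with Benjamini-Hochberg adjustment, a two-sided threshold of 0.05 and moderated standard errors. Errors of group levels are standard deviations over 3 arrays, and the number of arrays limits the precision. No label says that arrays are separate animals, so the spread tested may be technical. On simulated data with the real probes' means and spreads, 98% of changes of 2 and 77% of changes of 1 on the log2 scale were recovered, with 9 false calls. Few simulated probes were changed, whereas 61.5% of the real kept probes had a call. Background correction and normalization were not simulated, so these rates need not hold for the real data.

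Symbols came from the platform annotation, with 34885 probes on 1 symbol, 18 on several and 10378 unnamed, and 0 needed an update from the GRCm38.p6 gene table. All probes of the 10 members are given. A gene of another list is given by its brightest kept probe, and the text names the 3 largest called changes per clock, hormone or feeding list, the 3 genes nearest in pattern to Per1 and to Dbp, and Ddit3 and Hspa5. Other genes named from those lists were chosen after their values were seen. Promoters are RefSeq windows, found for 9 of the 10 members, all but Per2. The members and lists were chosen with earlier results of these data known.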

Additional observations from a re-analysis of the deposited data

How the results depend on the processing

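The counts of all changed probes and of clock probes that rose or fell were recomputed under up to 17 alternatives. So were the log2 fold changes of the clock probes, the leading genes of each list, the genes nearest in pattern, Ddit3 and Hspa5. Counts in the other lists and the remaining genes, among them Npas2, Noct, Alas1, Hdac3 and Fkbp5, were not recomputed. Some alternatives were no background correction, an offset of 50, 1 median per array and the second deposited table (shifted to start at 0, plus 16). Others were no detection filter, detection on all 6 arrays, detection p under 0.01 and eBayes with trend and robust. The rest were the brightest probe or the mean of the probes per gene, the replicate number as a block, and leaving out each array. For the clock probes, 176 alternative values kept their direction and side of the threshold. The 3 exceptions were Per2, whose brighter probe had a log2 fold change of -0.066 without vehicle replicate 3 and up to 0.18 when other single arrays were left out (0.18 without vehicle replicate 2), and the rises of Cry2 and of the dimmer Clock probe's gene given in the report. Leaving out 1 array gave 4 to 5 clock probes that rose, 2 to 3 that fell, and 8976 to 9763 probes changed in all against 10190. The fall of Nr1d1 had no value without any 1 vehicle array or with detection on all 6 arrays, since its probe then failed the filter. For the other genes recomputed, 672 alternative values kept direction and call, 21 lost the call and none reversed. All 21 were of Des, Retnlg and Vsig4, which are cell type markers. With the replicate block 10245 probes changed, and it changed no call of a clock probe. Deviations of same-numbered arrays correlated at 0.127, 0.053 and 0.019. Of the vehicle arrays, 2 of 3 correlated best with the tunicamycin array of their own number, and 1 of 3 tunicamycin arrays did so in turn. With 3 arrays per group, these values cannot settle whether the numbers pair the samples. Dim probes such as those of Nr1d1, Nr1d2 and Npas2 lie near background, where the size of a change depends on the background correction.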
